A study of Arabidopsis thaliana with 8 samples.

Results

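Genes for chromatin, small RNA and RNA polymerase proteins of Arabidopsis thaliana were followed between a line with a silenced chalcone synthase gene and a mutant of it. The members were nuclear genes whose current RefSeq symbol belongs to 1 of 23 families of polymerase subunits, Argonautes, Dicers, DNA and histone modifying enzymes or chromatin remodellers, or is SE, and which have a probe set naming that gene alone. Loci from AT1G56720 to AT1G66100 were left out of the search, which cost no hit. ARPN was dropped because its description is plantacyanin, a copper protein. This left 25 genes with 27 probe sets, of 13286 genes so named and 22746 probe sets in all. The label holds for what the rule found, but unevenly: 12 genes encode polymerase subunits, 8 chromatin remodelling proteins, 2 histone deacetylases, 2 small RNA factors and 1 a DNA demethylase. RefSeq lists 143 genes with matching symbols outside the segment, and the others, every Dicer, RDR, SUVH, CMT and DRM gene among them, were not analysed here.

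Total RNA of all tissues was hybridised to 8 Affymetrix ATH1 arrays, 1-colour arrays on which a probe set sums several short probes for a transcript. Of these, 4 carry RNA of stock N1695 in the Ler ecotype (StrainOrLine CHS), homozygous for a single insert with an additional CHS copy that silences the resident gene TT4. The other 4 carry RNA of 15B, an EMS mutant raised from N1695, so both groups hold the insert. No label names the gene altered in 15B, and the series title speaks of hog1. Each group is 1 line, so any further mutation that EMS left in 15B moves with the group. Plants of both groups stood at growth stage 1.04 on M.S. medium with 0.7% agar and 1% sucrose, at 22 degrees C with 18 h light after 3 days at 4 degrees C. Tissue of 10 plants was pooled for each of the 4 biological replicates, per the design text.

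In plants, transposons and repeated transgenes are kept silent by a loop between DNA methylation, histone methylation and small RNAs. RNA polymerase IV, a plant relative of polymerase II, makes the precursors of small interfering RNAs, and Argonaute proteins carrying these RNAs meet the transcripts of polymerase V and bring a DNA methyltransferase to the site. Polymerases IV and V were built from copies of polymerase II subunits and still share several of them with it. SNF2-family remodellers of the CLASSY group help polymerase IV onto its targets, while DNA glycosylases such as DEMETER remove methylcytosine again. The methylation steps draw their methyl groups from S-adenosylmethionine, whose by-product is cleared by the enzyme that HOG1 encodes.

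None of the 16 member probe sets bright enough to test was called between 15B and N1695 (0 of 16, limma, Benjamini-Hochberg adjusted p under 0.05). Over all 13822 tested probe sets 926 were called, a share of 6.7% (3.13% higher and 3.57% lower in 15B). At that share 16 probe sets would hold about 1 call, so a count of 0 is near the background. At an unadjusted limma p under 0.05 the members had 2, NRPB6B and NRPC2, against 21.5% of all tested probe sets. The groups of 4 arrays overlapped for all 16, while they did not overlap for 13.6% of all tested probe sets. Of the 16 log2 fold changes, 8 were above and 8 below 0, with a median of 0.03 (quartiles -0.13 and 0.21) against -0.03 (-0.16 and 0.10) over all tested probe sets. Regardless of sign, their median size was 0.18, against 0.13 over all tested probe sets.

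The intervals around the members' changes were about as wide as those of other probe sets. Changes are given as log2(signal + 10) of 15B minus N1695 with a standard error (SE) from limma, a scale that understates changes of dim probe sets. The members' largest change in size was 0.30, for NRPB7. Their 95% intervals reached a median of 0.26 log2 units to either side, and at most 0.39. Over all tested probe sets the median was 0.25. All 16 intervals lay within a 2-fold change either way and 14 of them within 1.5-fold, the exceptions being NRPB7, with an upper bound of 1.55-fold, and SWC2, with 1.51-fold. Among all probe sets the smallest change called was 0.25, and 11 of the 926 calls were no larger than the 0.30 of NRPB7. The adjusted p of the members ran from 0.136 to 0.928.

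**Figure D1:**
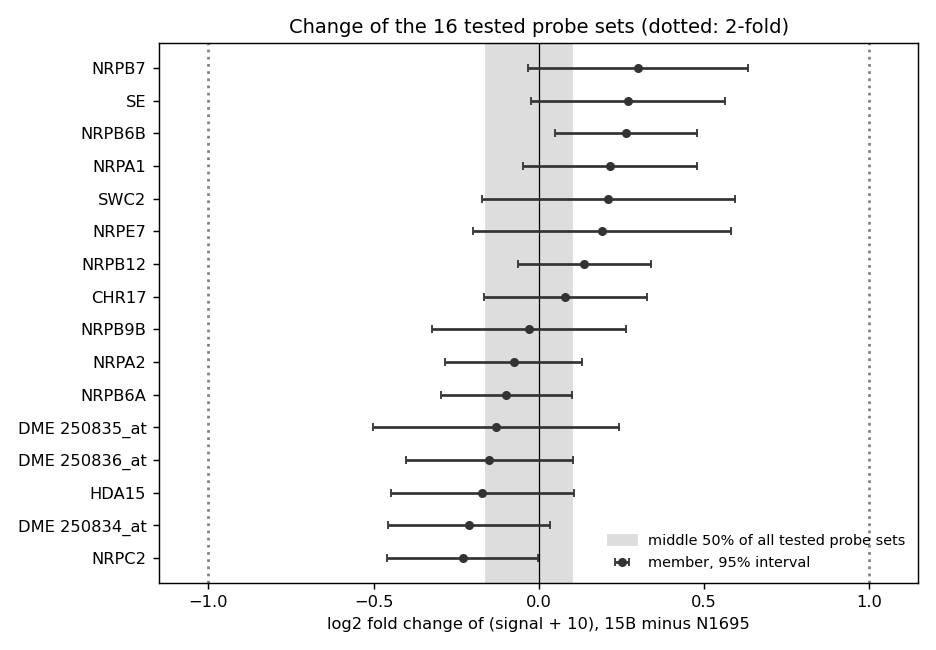
Log2 fold change of (signal + 10), 15B minus N1695, for the 16 tested probe sets (points) with the 95% interval of the limma fit (bars), n = 4 arrays a group. The grey band holds the middle 50% of all 13822 tested probe sets and dotted lines mark 2-fold. All intervals stay within 2-fold, and those of NRPB6B and NRPC2 alone leave out 0.

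RNA polymerase subunits made up the largest role, with 12 genes of which 9 were tested. The median change of the 9 was 0.14, with 5 above and 4 below 0, and 0 were called. NRPB6B (AT2G04630) encodes a small polymerase subunit, and RefSeq also lists it as NRPE6B. It read 205.2, 283.4, 243.1 and 229.7 on the N1695 arrays and 304.7, 303.8, 273.8 and 275.4 on those of 15B. The 15B arrays were all above the N1695 mean, but 1 N1695 array reached into their range. Its mean went from 240.4 ± 32.7 to 289 ± 17.1 (SD, n = 4), a log2 fold change of 0.27 (SE 0.10, 95% interval 0.05 to 0.48, limma adjusted p = 0.136), the smallest p of any tested member. Across the alternatives this adjusted p ran from 0.0596, without replicate 2 of N1695, to 0.264, without replicate 1 of it.

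NRPB6A (AT5G51940), the other gene for this subunit, read 214.8, 242.7, 228.2 and 202.4 against 181.0, 225.2, 208.5 and 213.4 in 15B. The groups overlapped widely and the change was -0.10 (SE 0.09, adjusted p = 0.585). The log2 ratio of NRPB6B to NRPB6A within an array lay between -0.06 and 0.22 in N1695 and between 0.35 and 0.72 in 15B. The ratios of the groups thus did not overlap, and their means differed by 0.36 (SE 0.11). This comparison was picked, with 3 others given below, after the values had been seen. All 4 are therefore given as a description. Permutation tests were run on them, but their p-values are left out because of that choice. Leaving out each array in turn, the difference in the NRPB6B to NRPB6A ratio ran from 0.28 to 0.40. Of single tested probe sets 13.6% also separated the groups, a share that was not computed for ratios.

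Subunits of polymerase I, which transcribes ribosomal RNA genes, were both tested. NRPA1 (AT3G57660), the largest subunit, read 65.0, 46.2, 53.3 and 65.3 against 71.9, 64.5, 60.4 and 75.2 in 15B. NRPA2 (AT1G29940), the second largest, read 178.5, 152.2, 154.0 and 184.2 against 168.3, 164.9, 159.4 and 139.4. Each gene overlapped between the groups, at changes of 0.22 (SE 0.12, adjusted p = 0.329) and -0.08 (SE 0.10, adjusted p = 0.698). Within arrays the log2 ratio of NRPA1 to NRPA2 lay between -1.53 and -1.33 in N1695 and between -1.27 and -0.81 in 15B, without overlap (difference 0.29, SE 0.11, and 0.19 without replicate 4 of 15B). This ratio too was picked after the values had been seen. Of single tested probe sets 13.6% also separated the groups, and the share among ratios was not computed. Without replicate 2 of N1695 the change of NRPA1 was 0.13.

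Polymerase III, which makes transfer RNAs and 5S ribosomal RNA, was measured through its largest pair of subunits. NRPC2 (AT5G45140) read 72.2, 69.9, 61.8 and 79.6 in N1695 against 63.3, 52.1, 57.8 and 62.4 in 15B. The 15B values were lower on average, 58.9 ± 5.13 against 70.9 ± 7.33 (SD, n = 4), and 2 of the 15B arrays lay inside the N1695 range. The change of -0.23 (SE 0.11) did not pass (limma adjusted p = 0.231). NRPC1 (AT5G60040), with 23.9 to 36.0 and 21.1 to 35.5, had a mean of 29.7, just under the limit of 30 signal units below which probe sets were not tested.

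The stalk subunit next to the exit of the RNA has a gene of its own for polymerases II, IV and V. NRPB7 (AT5G59180), for polymerase II, read 98.2, 95.6, 97.8 and 63.5 against 145.4, 108.0, 99.8 and 93.5 in 15B. Replicate 4 of N1695 was far below the other arrays of its group, and the change of 0.30 (SE 0.15, adjusted p = 0.278) was 0.16 without it. It was 0.18 without replicate 1 of 15B, the highest array. NRPE7 (AT4G14660), for polymerase V, read 34.7, 27.1, 43.6 and 30.5 against 44.7, 54.8, 26.5 and 37.4, with arrays of 15B both above and below those of N1695 (0.19, SE 0.18, adjusted p = 0.584). Leaving out each array in turn, NRPE7 ran from 0.065, without replicate 2 of 15B, to 0.34, without replicate 3 of it. The ratio of NRPB7 to NRPE7 overlapped between the groups (difference 0.11, SE 0.22, and 0.0028 to 0.24 leaving out each array). NRPD7 (AT3G22900), for polymerase IV, was below the limit, at 23.8 to 29.4 in N1695 and 19.9 to 33.6 in 15B.

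The remaining subunits serve several polymerases, as does that of NRPB6B by its RefSeq names. NRPB12 (AT5G41010), which RefSeq also lists as NRPD12 and NRPE12, read 220.7, 270.7, 239.9 and 212.5 against 242.2, 280.4, 247.9 and 269.6 in 15B, a change of 0.14 (SE 0.09, adjusted p = 0.423). NRPB9B (AT4G16265), a small subunit that also has NRPD9B and NRPE9B as synonyms, read 86.2, 109.3, 83.7 and 64.3 against 80.0, 86.7, 72.7 and 92.3. Here the 15B arrays lay wholly within the N1695 range, and the change of -0.03 (SE 0.14, adjusted p = 0.928) had the largest p of the members. Its partner gene NRPB9A (AT3G16980) was dim, at 16.8 to 25.5 and 11.9 to 23.4. The large subunits that set polymerases II, IV and V apart were not analysed here.

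**Figure D2:**
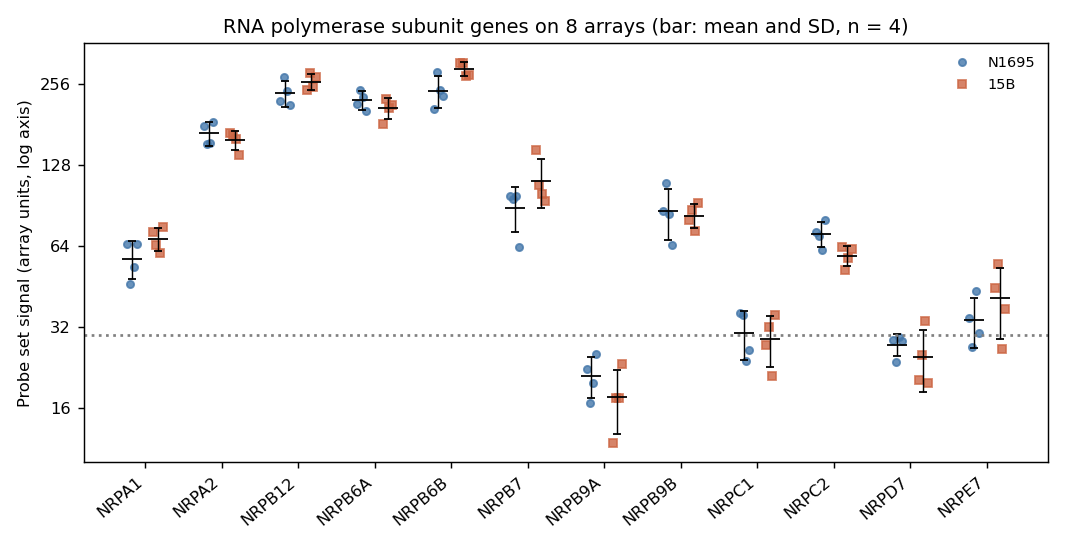
Probe set signal in array units (log axis) of the 12 polymerase subunit genes on each N1695 array (circles) and each 15B array (squares), with mean and SD (black, n = 4). The dotted line is the limit of 30 for testing. The groups overlap for every gene, NRPB6B included, and NRPB9A, NRPC1 and NRPD7 average under the limit.

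Of the small RNA factors SE was tested. SE (AT2G27100), the gene for SERRATE, a zinc finger protein that helps Dicer cut microRNA precursors, read 42.2, 39.6, 38.3 and 47.2 in N1695 and 50.2, 52.3, 41.6 and 68.3 in 15B. On 3 of the 4 mutant arrays it was above every N1695 array, and replicate 3 of 15B lay among them. The mean went from 41.8 ± 3.93 to 53.1 ± 11.1 (SD, n = 4), with a log2 fold change of 0.27 (SE 0.13) that did not pass (limma adjusted p = 0.269). Without replicate 4 of 15B it was 0.16. AGO7 (AT1G69440), the Argonaute that works in the trans-acting small RNA pathway of leaf development, was spread alike in both groups, from 23.4 to 42.7 and from 20.6 to 39.3, at a mean of 29.6 below the limit.

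The DNA demethylase gene DME (AT5G04560) is known for its role in the central cell of the ovule, where it opens imprinted genes. Its 3 probe sets all name this locus, and RefSeq lists AT5G04570 and AT5G04580 as synonyms of it. Probe set 250834_at read 57.2, 58.6, 49.3 and 48.1 in N1695 and 46.6, 48.7, 45.6 and 37.9 in 15B. The second, 250836_at, read 68.4, 64.5, 59.8 and 78.2 against 57.0, 54.0, 56.9 and 72.9. For both, 3 of the 4 mutant arrays were below every N1695 array, and in 250836_at replicate 4 of 15B stood above the other 3. The third, 250835_at, read 33.3, 30.1, 37.3 and 59.0 against 35.6, 40.1, 27.6 and 36.0, where its lower mean in 15B rested on replicate 4 of N1695.

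None of the DME probe sets passed, at log2 fold changes of -0.21 (SE 0.11), -0.15 (SE 0.12) and -0.13 (SE 0.17), with limma adjusted p values of 0.308, 0.498 and 0.713. These probe sets report 1 gene and are not replicates. Averaged over them, the log2 value of the gene ran from 5.86 to 6.14 in N1695 and from 5.70 to 5.84 in 15B. The averages did not overlap, with a difference of -0.16 (SE 0.07). Of single tested probe sets 13.6% separated the groups as fully, a share that was not computed for averages over several. Leaving out each array in turn, the difference ran from -0.20 to -0.10, and without replicate 4 of N1695 probe set 250835_at was at 0.037.

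Histone deacetylases were measured through the genes HDA15 and HDA7. HDA15 (AT3G18520), which acts with light-signalling transcription factors, read 50.6, 56.2, 55.1 and 69.4 in N1695 and 41.5, 61.2, 48.0 and 50.8 in 15B. The groups overlapped, with a change of -0.17 (SE 0.13, limma adjusted p = 0.479). It was -0.092 without replicate 4 of N1695 and -0.097 without replicate 1 of 15B. HDA7 (AT5G35600) was among the dimmest probe sets, with 1.1 to 7.6 in N1695 and 4.1 to 8.1 in 15B, and was not tested.

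Chromatin remodelling proteins had 2 tested genes of 8. CHR17 (AT5G18620), an ISWI-type remodeller that spaces nucleosomes, read 71.2, 52.4, 69.3 and 72.7 against 76.4, 63.6, 72.1 and 69.6 in 15B. The groups overlapped, at a change of 0.08 (SE 0.11, limma adjusted p = 0.732). SWC2 (AT2G36740), a subunit of the SWR1 complex that places the histone variant H2A.Z, read 45.0, 21.5, 22.1 and 25.0 against 36.6, 31.0, 31.4 and 34.1. Replicate 1 of N1695 stood above all other arrays while the other 3 lay below every array of 15B, and the change was 0.21 (SE 0.18, adjusted p = 0.534). SWC2 is the one tested member whose mean in 1 group, N1695, was under the limit, and without that replicate it was no longer tested.

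**Figure D3:**
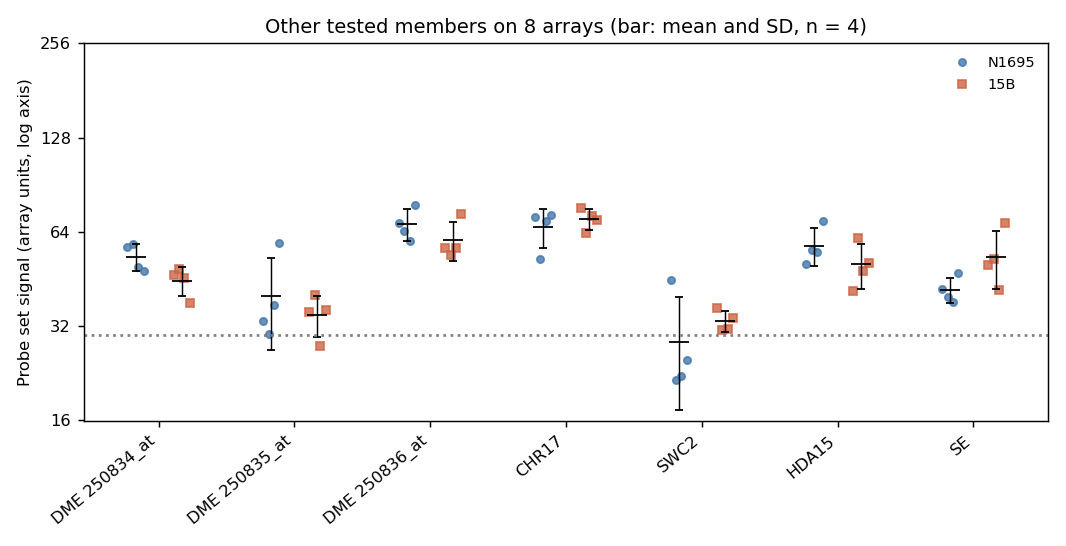
Probe set signal in array units (log axis) of the 7 tested probe sets outside the polymerases on each N1695 array (circles) and each 15B array (squares), with mean and SD (black, n = 4) and the limit of 30 (dotted). SE sits higher on 3 of the 4 mutant arrays, the 3 DME probe sets have lower means in 15B, and the groups overlap for all 7.

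The other 11 member probe sets, 1 for each of 11 genes, had a mean under 30 signal units over the 8 arrays. That is 40.7% of the 27, close to the 39.2% of all probe sets. Just inside the limit was SWC2 at 30.8 and just outside NRPC1 at 29.7. Fitted with no limit, 0 of all 27 passed (limma, Benjamini-Hochberg) against 3.65% of 22746 probe sets, and 3 had an unadjusted p under 0.05 against 16.8%. The groups overlapped for all 27 in that fit, where 10.5% of all probe sets had groups that did not overlap.

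Among these dim probe sets were 2 of the CLASSY group. CHR42 (AT5G20420), also called CLSY2, read 16.2, 11.3, 15.4 and 19.5 in N1695 and 3.2, 5.0, 12.4 and 2.5 in 15B. Its values were low on 3 mutant arrays, while replicate 3 of 15B reached the N1695 range. With no limit the change was -0.73 (95% interval -1.16 to -0.30, limma unadjusted p = 0.00337, adjusted p = 0.0706). Without replicate 3 of 15B it was -0.91 and passed (adjusted p = 0.0133), and over the other alternatives the adjusted p lay between 0.0579 and 0.166. The size depends on the pseudocount, at -1.48 with 1 and -0.36 with 30.

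CHR40 (AT3G24340), or CLSY4, leaned the other way, with 6.9, 8.5, 13.5 and 14.7 in N1695 and 14.2, 18.1, 18.3 and 17.8 in 15B. On 3 mutant arrays it was above all N1695 arrays, at a change of 0.39 with no limit (95% interval 0.05 to 0.73, limma adjusted p = 0.231). Both genes lie well below the limit of 30.

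The other SNF2-family genes gave no call either. CHR18 (AT1G48310) lay at 25.9 to 37.0 and 16.5 to 33.0, CHR24 (AT5G63950), a relative of the repair factor ERCC6 by its RefSeq synonyms, at 22.5 to 29.4 and 16.4 to 27.5. CHR23 (AT5G19310), whose activity affects growth, lay at 23.1 to 28.7 and 27.0 to 29.7. CHR34 (AT2G21450) read 14.6 to 20.2 in N1695 and 10.6 to 19.7 in 15B. With no limit their changes were between -0.35 for CHR18 and 0.09 for CHR23.

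**Figure D4:**
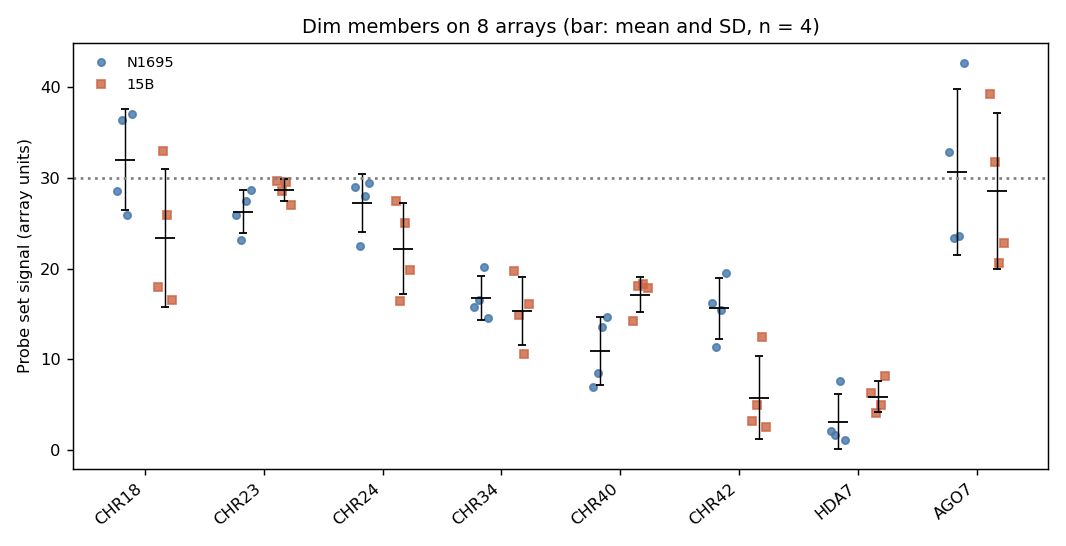
Probe set signal in array units (linear axis) of the 8 dim members outside the polymerases on each N1695 array (circles) and each 15B array (squares), with mean and SD (black, n = 4) and the limit of 30 (dotted). CHR42 is lower on 3 mutant arrays and CHR40 higher on 3, and in each the remaining array overlaps N1695.

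Spread within groups was close to that of other probe sets for the tested members. Their coefficient of variation had a median of 13.8% in N1695 and 10.1% in 15B, against 11.8% and 11.3% over all tested probe sets. It was widest for SWC2 in N1695, at 39.3%, and narrowest for NRPB6B in 15B, at 5.92%. All 27 probe sets carry the suffix of a design for 1 transcript. RefSeq places 11 of the 25 genes on chromosome 5, 5 on chromosome 3, 4 on chromosome 2, 3 on chromosome 1 and 2 on chromosome 4.

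Genes of the same pathways outside the rule had few tested probe sets and 0 calls. Over all tested probe sets 6.7% were called and 21.5% had an unadjusted limma p under 0.05. At these shares a count of 0 among so few genes says little about the pathways. Of 39 further silencing genes 3 had a named probe set and 2 were tested, with a median change of -0.10 and 0 calls (limma, 0 at an unadjusted p under 0.05). The smaller p belonged to AT1G54440, a gene for an exosome-associated RNA exonuclease of the RRP6 type, at 61.2 ± 3.57 and 53.5 ± 3.76 (SD, n = 4, change -0.17, limma adjusted p = 0.357). Of 39 chromatin genes 7 were tested, among them the remodelling complex subunits BSH, CHB3 and SWI3A. There were 0 calls and 0 at an unadjusted limma p under 0.05. Of the 7 changes 6 were below 0, with a median of -0.13, against 7690 below 0 of all 13822 tested probe sets. Nearest to the threshold was AT2G30620, which encodes a linker histone H1, with 331.9, 428.4, 408.1 and 308.8 against 293.0, 292.8, 345.2 and 313.3 in 15B (-0.23, SE 0.11, limma adjusted p = 0.245).

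Methyl group supply was covered by 4 tested genes of 23 listed, with a median change of 0.05. There were 0 calls, against 6.7% of all tested probe sets. At an unadjusted limma p under 0.05 there was 1 gene, against 21.5%. That gene was MGL, a methionine gamma-lyase, which read 73.0, 87.0, 91.1 and 62.3 against 87.1, 139.6, 96.2 and 117.9 in 15B. The 15B arrays lay at 87.1 or above and overlapped N1695 (0.44, SE 0.15, limma adjusted p = 0.101). MGL lies within the segment of chromosome 1 that was left out of the members. HOG1 itself was not analysed here.

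Markers of tissue makeup were few, so organ shares are largely unchecked, and in whole plants fewer cells of a type and less RNA per cell cannot be told apart. Of 68 listed marker genes 9 had a named probe set and 7 were tested, with 0 calls (limma, 0 at an unadjusted p under 0.05). Over all tested probe sets these shares were 6.7% and 21.5%. The summed signal of 3 leaf genes lay between 8751 and 10747 in N1695 and between 9918 and 11722 in 15B (exact permutation p = 0.629), and that of 4 genes of dividing cells between 266.0 and 360.7 and between 273.7 and 306.8 (exact permutation p = 0.429). The smallest p of the leaf list was that of SBPASE, a Calvin cycle enzyme (0.15, SE 0.10, limma adjusted p = 0.426), that of the division list PRL, a replication licensing factor (-0.13, SE 0.13, limma adjusted p = 0.636). EXPA7, an expansin of root hairs, was the only root marker (-0.09, SE 0.16, limma adjusted p = 0.790). The only flower marker, SPL, read at most 3.5 on any array.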

How the data were processed

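Each deposited array table holds a linear intensity for every probe set. Its 2%-trimmed mean was 100.0 on all 8 arrays, so they had been scaled to each other before deposit. Changes are therefore relative to the bulk of probe sets. Which software made the signals is not given in the sources used here. Without the 64 control probe sets, gene names came from the platform's annotation (13513 with 1 gene, 503 with several) and were updated by Entrez number to RefSeq for TAIR10.1 (13436 found). Probe sets naming several genes or none gave no member or list gene. They stayed among all probe sets for the fit, its adjustment and the background shares. Values were transformed as log2(value + 10), and probe sets with a mean under 30 were not tested (8924). The test was that of limma 3.58.1 (R 4.3.3, eBayes with a trend on mean intensity), two-sided, Benjamini-Hochberg over all tested probe sets, threshold 0.05, on 4 arrays a group, whose number limits the precision. Array measures and summed marker signals were tested by exact permutation (scipy 1.17.1). The same test was run on the 4 comparisons picked after seeing the values, and its p-values are not given. The steps were checked on simulated data. The members and lists were chosen with earlier results of these data known. Named are the members that passed, in each role the smallest p and the brightest, core silencing genes and 1 gene a list. As the members are few, the text gives all 25. No protein sequence is shown. Same-numbered arrays were not shown to be pairs (residual correlations 0.25, -0.01, 0.05 and 0.05). No pair of arrays shared more than 0.958% of its values.

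Scanner background, from the labels, was 198 on replicate 4 of N1695, 77.6 to 94.3 on the other N1695 arrays and 93.7 to 101 in 15B. The mean of 15B minus that of N1695 was -17.4 (exact permutation p = 0.971). Leaving out each array in turn, this difference ran from -29.7 to 10.3. Outlier cells averaged 328.5 in N1695 and 671 in 15B (exact permutation p = 0.114). The alternatives left out each array in turn, took pseudocounts of 1 or 30, dropped the filter or raised it to 60, normalized by quantiles or centred on medians, fitted array weights, a replicate block, robust eBayes or eBayes with no trend, or kept single-transcript probe sets alone.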

Additional observations from a re-analysis of the deposited data

Results flagged for a closer look

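In 10 of 66 sets of 4 values examined, 1 array stood apart from the other 3 of its group, and chance does this in about 1 in 20. Of the 54 sets of member signals 6 did so. In N1695 NRPB7 read 63.5 on replicate 4 against 95.6 to 98.2, CHR17 read 52.4 on replicate 2 against 69.3 to 72.7, SWC2 read 45.0 on replicate 1 against 21.5 to 25.0 and the dim HDA7 read 7.6 on replicate 3 against 1.1 to 2.1. In 15B the DME probe set 250836_at read 72.9 on replicate 4 against 54.0 to 57.0, and CHR40 read 14.2 on replicate 1 against 17.8 to 18.3. The log2 ratio of NRPB6B to NRPB6A was 0.72 on replicate 1 of 15B against 0.35 to 0.42.

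Of the array measures in the labels, scanner background was 198 on replicate 4 of N1695 and 77.6 to 94.3 on its other arrays, and noise 13.5 against 3.91 to 5.15. Outlier cells numbered 1353 on replicate 2 of 15B, where the other arrays had 403 to 505. Without replicate 4 of N1695 the change of NRPB7 was 0.16 in place of 0.30, and the part of that array's background in its low NRPB7 signal was not tested.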

How the results depend on the processing

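No tested member passed the threshold in any of the 297 values computed for members under the alternatives, where the lowest limma adjusted p was 0.0596, and the lists of 39 silencing, 39 chromatin and 23 methyl supply genes and the markers also kept 0 calls. Calls over the whole table numbered 926 (432 higher, 494 lower), 781 to 1225 under the other settings with all arrays, and 523 to 993 leaving out each array (291 to 452 higher, 232 to 541 lower), with fewer samples. Leaving out replicate 3 of N1695 gave 523 and replicate 2 of 15B gave 588. Calls lower in 15B were 288 and 232 when replicate 2 or 3 of N1695 was dropped and 296, 315 and 318 when replicate 2, 3 or 4 of 15B was. A replicate block gave 1078 calls with 0 among the members. Signs turned in 4 of the 297, among them that of DME 250835_at, which was at -0.13 with all arrays. Without replicate 4 of N1695 DME 250835_at was at 0.037, without replicate 2 of it NRPB9B was at 0.082 and CHR17 at -0.014, and without replicate 3 of 15B NRPB9B was at 0.025. The cause was not tested. Leaving out each array gave -0.22 to 0.04 for DME 250835_at, -0.15 to 0.08 for NRPB9B and -0.01 to 0.12 for CHR17. With a filter of 60, 10 member probe sets were tested. The alternatives for CHR42, CHR40 and the 4 comparisons of ratios and of DME over its probe sets were added after seeing the data. Signal limits the 11 dim members, of which none entered the main test.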

Other observations

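Further chromatin genes were collected from RefSeq synonyms and descriptions after the members had been analysed: histones, histone chaperones, remodellers and a JmjC gene under other symbols, and silencing factors. They are 13 genes with 14 probe sets, of which 10 were tested, with a median change of -0.03, 0 calls (limma, against 6.7% of all tested probe sets) and 2 at an unadjusted p under 0.05 (against 21.5%), both near the background. HIS1-3, a linker histone known to respond to drought, read 94.5, 143.5, 132.9 and 76.6 in N1695 and 48.9, 105.1, 47.7 and 60.9 in 15B. Of the 4 mutant arrays 3 were below every N1695 array, at a change of -0.71 (SE 0.23, limma adjusted p = 0.0829). It passed with array weights (adjusted p = 0.0391), with the replicate block (0.0216) and when replicate 4 of N1695 (0.0469) or replicate 2 of 15B (0.0172) was dropped. AT1G28060, which RefSeq also lists as RDM16, a splicing factor gene tied to RNA-directed DNA methylation, was at 102 ± 11.3 and 123 ± 15.8 (SD, n = 4, change 0.24, SE 0.11, limma adjusted p = 0.232).

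The third CLASSY gene named on the array, listed in lower case as chr31 and so outside the rule, had 2 dim probe sets. One read 9.3 to 16.6 in N1695 and 5.8 to 12.2 in 15B, the other 1.5 to 25.2 and 11.1 to 20.8, so their means leaned opposite ways. The chaperone genes ASF1B and SGA2, the centromeric histone gene HTR12, the remodeller genes ATRX and ETL1, the histone genes HON4 and HTB2 and NERD did not pass, with changes between -0.21 and 0.21.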
